A study of Mus musculus with 10 samples.

Results

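The genes described are 7 p53 targets and DNA damage genes: Gadd45a, Cdkn1a, Mdm2, Ccng1, Bax, Btg2 and Trp53. Every probe set that the platform table pairs with one of these symbols was taken, which gave 6 of 12488 probe sets, for 5 of the 7 genes and of 8252 genes with a symbol on the platform. Cdkn1a has 2 probe sets and Gadd45a, Btg2, Ccng1 and Mdm2 have 1 each. Bax and Trp53 had no match by symbol and their levels were not analysed here, so no level of the p53 transcript itself is given. All 6 probe sets passed the filter on dim signals and were among the 7453 tested.

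The study hybridised total RNA of mouse hepatocytes to 10 oligonucleotide arrays, 1 per sample, to compare the response to low oxygen in wild-type cells and in cells without HIF-1alpha, which is stabilised when oxygen falls and, with a partner protein, switches on hypoxia genes. The groups were 3 hypoxic samples labelled HIF-1alpha null, 3 hypoxic adeno-treated samples, 2 normoxic adeno-treated samples and 2 normoxic untreated samples. Titles of the hypoxic adeno-treated samples give no genotype, and these cells are called wild type here. No normoxic null sample was among them, so the null cells could be set only against hypoxic wild-type cells, or against normoxic cells that differ in oxygen and label at once. The labels do not say which vector was used, how HIF-1alpha was removed, whether null-labelled cells had adeno treatment, which genotype the normoxic cells had, or how low and how long oxygen was kept. The samples carry a number from 1 to 3 within each group. Nothing says that they came from separate cultures or animals, so p-values measure only the spread between these samples, which may be technical.

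The protein p53 is a transcription factor that is stabilised when DNA is damaged and in other kinds of stress. It turns on genes that halt the cell cycle, repair DNA or start cell death, and it turns on Mdm2, which marks p53 for degradation and so closes a feedback loop. Several of these targets, Gadd45a and Cdkn1a among them, are also induced through other stress pathways.

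Values are scaled intensities on a linear scale. Folds and log2 differences are on the scale of log2(intensity + 4.7). Each probe set was tested with limma on all 10 arrays, 2-sided, with Benjamini-Hochberg adjustment over the 7453 probe sets of a comparison, and "rose" or "fell" is used at an adjusted p under 0.05. Levels of different probe sets are not compared, since each binds with its own strength.

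The promoters of Gadd45a and Cdkn1a are shown because these were the genes past the threshold in at least 1 comparison. Each window runs from 250 bases before to 50 bases after a RefSeq gene start (GRCm38.p6), 5′ to 3′ on the gene's strand. Capitals mark a match of 10 bases to the p53 half-site consensus on either strand. Gadd45a lies at chr6:67035096-67037407, with 1 window on the minus strand at chr6:67037358-67037657. Cdkn1a lies at chr17:29090979-29100722, with 2 windows on the plus strand, at chr17:29090729-29091028 and chr17:29093519-29093818.
Gadd45a: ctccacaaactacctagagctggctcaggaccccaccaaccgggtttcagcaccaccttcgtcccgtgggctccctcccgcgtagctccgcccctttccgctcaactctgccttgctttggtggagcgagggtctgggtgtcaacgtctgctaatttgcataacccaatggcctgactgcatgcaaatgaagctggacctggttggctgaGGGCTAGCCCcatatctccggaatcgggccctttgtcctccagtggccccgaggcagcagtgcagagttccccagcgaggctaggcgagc
Cdkn1a, first window: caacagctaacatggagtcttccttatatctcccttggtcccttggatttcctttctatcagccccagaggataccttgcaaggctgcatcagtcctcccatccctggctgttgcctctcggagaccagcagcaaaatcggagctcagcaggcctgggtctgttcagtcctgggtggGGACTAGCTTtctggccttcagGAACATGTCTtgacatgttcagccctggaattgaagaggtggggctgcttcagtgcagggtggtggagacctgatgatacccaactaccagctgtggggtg
Cdkn1a, second window: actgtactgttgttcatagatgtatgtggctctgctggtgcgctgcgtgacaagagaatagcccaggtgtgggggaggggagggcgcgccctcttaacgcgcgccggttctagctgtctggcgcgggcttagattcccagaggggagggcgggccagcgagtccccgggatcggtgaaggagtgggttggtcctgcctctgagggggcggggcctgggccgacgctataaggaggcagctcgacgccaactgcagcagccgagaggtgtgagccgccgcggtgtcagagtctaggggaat

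The Gadd45a window held 1 match, GGGCTAGCCC, starting at position -40 from the gene start. The first Cdkn1a window held 2, GGACTAGCTT at -73 and GAACATGTCT at -51, and the second held none. Single matches were also found in the windows of Ccng1 (GGGCAAGCCT at -185) and Mdm2 (GAACTTGCCT at -186), and none in that of Btg2. The genes without a probe set, Bax (AGGCAAGCTT at -201) and Trp53 (GGACTTGCCC at -75), had single matches too. Thus 6 of the 8 windows of the 7 genes held a match. Of all 32851 mouse windows of this length, 8.36% held at least 1 such match. The core of the site that hypoxia-inducible factors bind, ACGTG on either strand, was in 2 of the 8 windows, against 19.6% of all windows. These 2 were the windows of Bax and Trp53, and none of the 6 windows of the measured genes held it. These matches are letters in a window and show no binding.

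Gadd45a, whose product binds Cdkn1a protein and PCNA and is linked to growth arrest and DNA repair, was the member with the largest difference between hypoxic and normoxic arrays. It read 701, 1019 and 1399 on the null-labelled arrays numbered 1, 2 and 3. On the hypoxic wild-type arrays it read 639, 797 and 1209. It read 187 and 187 on the normoxic adeno-treated arrays and 258 and 281 on the untreated ones. All 6 hypoxic arrays stood above all 4 normoxic arrays, and the lowest hypoxic value was 2.28 times the highest normoxic one. The means were 1039.7 ± 349 in null-labelled (SD, n = 3), 882 ± 294 in hypoxic wild-type (n = 3), 187 ± 0.21 in normoxic adeno-treated (n = 2) and 269 ± 16.1 in untreated cells (n = 2).

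Gadd45a rose 5.25-fold in null-labelled hypoxic cells over normoxic adeno-treated cells (log2 2.39, SE 0.31, limma adjusted p = 0.0147). It rose 4.47-fold in hypoxic wild-type cells over the same arrays (log2 2.16, SE 0.31, limma adjusted p = 0.0206). These comparisons share their control arrays. Over all tested probe sets, 0.429% were called in the first and 0.322% in the second, and Gadd45a was the 1 called of the 6 member probe sets in each. Null-labelled and wild-type hypoxic cells overlapped, with a log2 difference of 0.23 (95% interval -0.39 to 0.86, limma adjusted p = 0.999). In normoxia both adeno-treated arrays were below both untreated ones, with a log2 difference of -0.52 (interval -1.28 to 0.25, limma adjusted p = 0.723).

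The call in hypoxic wild-type cells was lost, with fewer arrays in the fit, without either normoxic untreated array (limma adjusted p = 0.0511 and 0.0515), normoxic adeno-treated number 1 (0.158) or number 2 (0.285), hypoxic wild-type number 2 (0.103) or null-labelled number 2 (0.0513), at log2 values of 2.16 to 2.21. In null-labelled cells it was lost without normoxic adeno-treated number 1 (0.107) or number 2 (0.222) or null-labelled number 2 (0.0875), at 2.38 to 2.39.

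**Figure D1:**
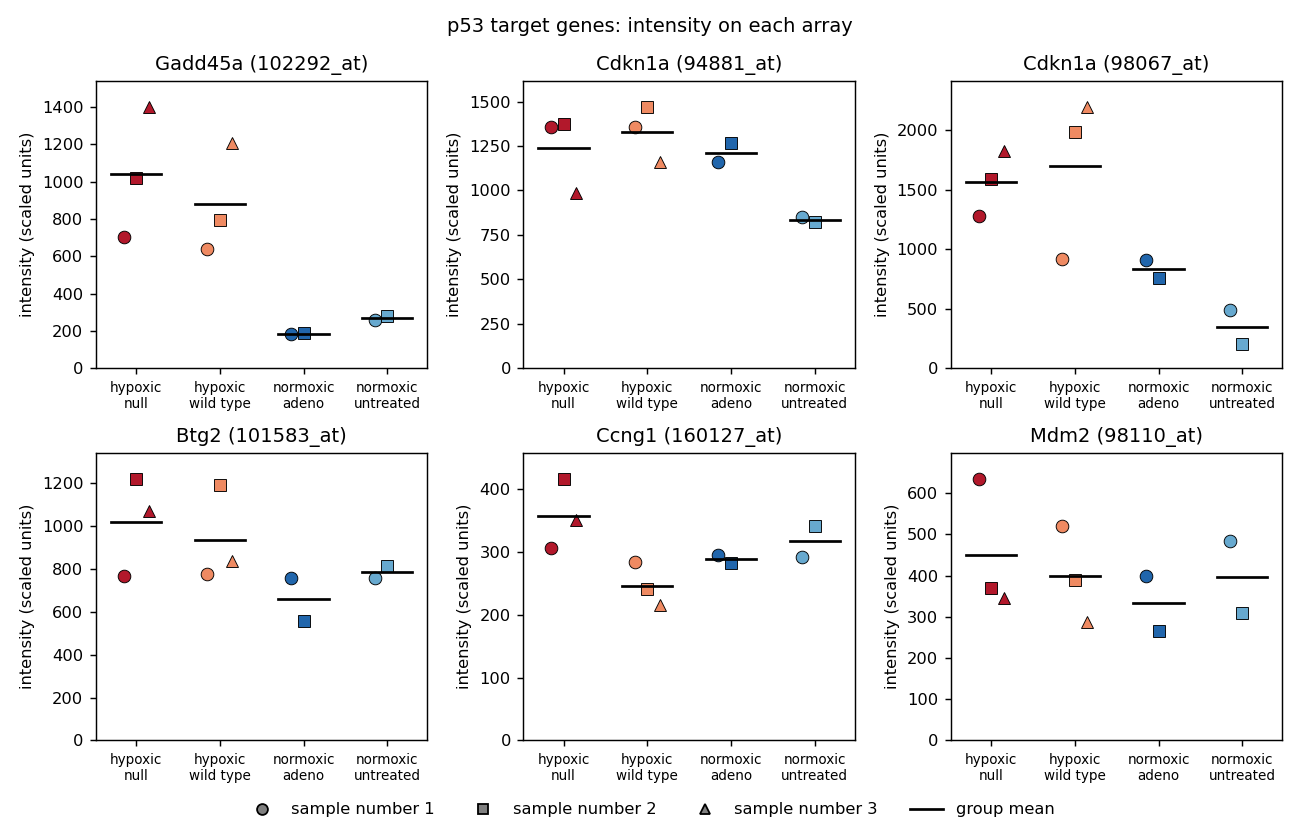
Intensity of each member probe set on each array (linear axis from 0, 1 panel per probe set), by group, with the shape giving the sample number and the bar the group mean. Gadd45a was 639 to 1399 on the 6 hypoxic arrays and 187 to 281 on the 4 normoxic ones, while Mdm2, Ccng1 and Btg2 overlapped between hypoxic and normoxic arrays.

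Gadd45a also followed the sample number on the hypoxic arrays. Number 1 was the lowest array in 4 of 4 groups and number 3 the highest in both hypoxic groups. The normoxic margins were small, with 186.6 and 186.9 on adeno-treated and 258 and 281 on untreated arrays 1 and 2. Within number 1, the log2 difference from the normoxic adeno-treated array was 1.88 on the null-labelled and 1.75 on the wild-type array. Within number 2 these were 2.42 and 2.06. No normoxic array has number 3.

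Markers of several cell types moved with the number. The summed intensity of 15 of 16 stellate cell and fibroblast markers was 19664, 13633 and 6229.6 on the null-labelled arrays 1, 2 and 3, and 20961, 15389 and 6907.5 on the wild-type ones. It lay between 11076 and 12778 on the 4 normoxic arrays. The sum of 12 of 14 hepatocyte markers was lowest on number 1 in 4 of 4 groups, as Gadd45a was, at 28760.5, 30287 and 37498 on the null-labelled and 26473, 34477 and 42409.5 on the wild-type arrays. Sums of 5 of 7 biliary, 10 of 11 endothelial and 11 of 12 macrophage markers were highest on number 1 in 4 of 4 groups. The biliary sum was 6439, 4738 and 2456 on the null-labelled and 6453, 4702 and 2556 on the wild-type arrays, and the endothelial sum 1205, 825 and 534 on the null-labelled and 1393.5, 832 and 593 on the wild-type arrays. The 18S ribosomal control probe sets averaged 12.2 to 12.3 (log2) on the 2 hypoxic number 3 arrays, against 7.38 to 8.97 on the other hypoxic arrays and 5.98 to 10.2 on the normoxic ones. Without both number 3 arrays, Gadd45a was still called, at log2 2.15 in null-labelled (limma adjusted p = 0.00814) and 1.91 in wild-type cells (0.0168) over normoxic adeno-treated cells. In bulk RNA, fewer cells of a type and less RNA per cell cannot be told apart.

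**Figure D2:**
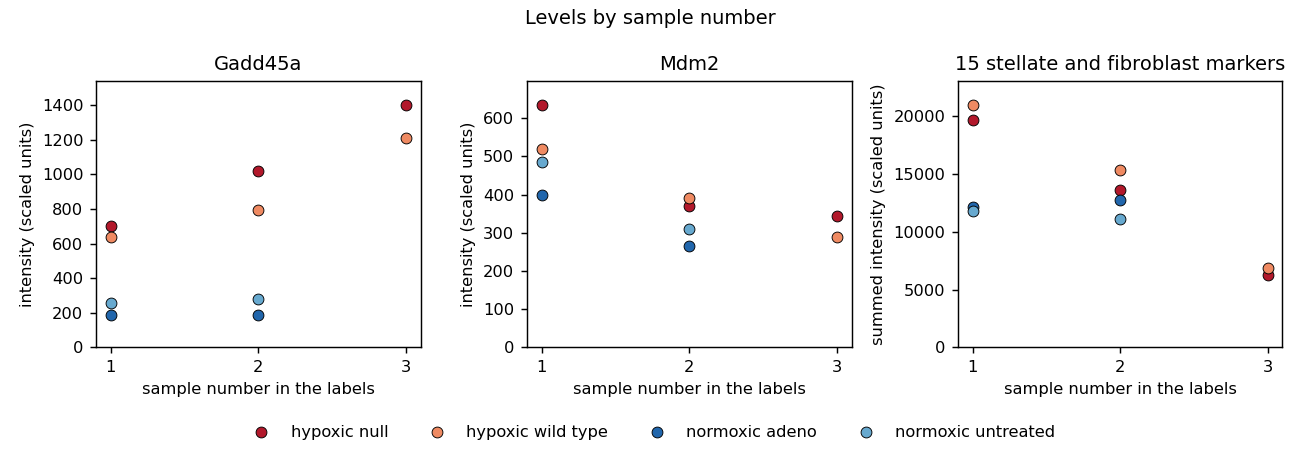
Intensity of Gadd45a and Mdm2 and the summed intensity of 15 stellate cell and fibroblast markers (linear axes from 0) against the sample number in the labels, 1 point per array, coloured by group. Gadd45a is lowest and Mdm2 highest on the number 1 array of each group, and the marker sum on the hypoxic arrays is lowest at number 3. The Gadd45a values of the normoxic adeno-treated arrays are nearly equal.

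Cdkn1a encodes p21, an inhibitor of cyclin-dependent kinases that halts the cell cycle. Its probe set 98067_at read 1277, 1589.6 and 1827 on the null-labelled arrays 1, 2 and 3, and 919, 1987 and 2192 on the hypoxic wild-type arrays. It read 913 and 760.2 on the normoxic adeno-treated arrays and 488 and 201 on the untreated ones. All hypoxic arrays were above all normoxic ones, but by a narrow margin: the lowest hypoxic value was 1.01 times the highest normoxic one. The normoxic groups did not overlap either, with both adeno-treated arrays above both untreated ones.

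Against adeno-treated normoxia, 98067_at was 1.85-fold higher in null-labelled cells (log2 0.89, 95% interval -0.05 to 1.83, limma adjusted p = 0.540) and 1.90-fold in wild-type cells (log2 0.93, interval -0.01 to 1.87, adjusted p = 0.638). Neither passed the threshold. Null-labelled and wild-type hypoxic cells differed by a log2 of -0.04 (interval -0.88 to 0.80). In normoxia, adeno-treated over untreated cells gave 2.63-fold (log2 1.39, interval 0.36 to 2.42). Its limma p was 0.0130 before adjustment and 0.511 after it. Before adjustment, 8.32% of all tested probe sets were under 0.05 in that comparison. None of the 7453 passed after adjustment (0%).

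The other Cdkn1a probe set, 94881_at, differed in pattern. It read 1355.5, 1375 and 988 on the null-labelled arrays and 1354, 1468 and 1162 on the hypoxic wild-type arrays. It read 1160.1 and 1267 on the normoxic adeno-treated arrays and 849 and 820.4 on the untreated ones. The hypoxic arrays overlapped the adeno-treated ones and stood above the untreated ones. Number 3 was the lowest array of both hypoxic groups here, whereas it was the highest of both for 98067_at. Null-labelled over normoxic adeno-treated cells gave a log2 difference of 0.02 (interval -0.40 to 0.44), and hypoxic wild-type over the same arrays 0.12 (interval -0.29 to 0.54). Adeno-treated over untreated normoxic cells gave 0.54 (interval 0.08 to 1.0), with a limma p of 0.0266 before and 0.548 after adjustment.

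All 6 hypoxic arrays were then set against all 4 normoxic arrays, a contrast that mixes genotype label and adeno treatment. Of the 6 member probe sets 2 were called higher, against 1.46% of all tested probe sets called in either direction. These were Gadd45a, 4.05-fold higher (log2 2.02, SE 0.22, limma adjusted p = 0.00202), and Cdkn1a 98067_at, 3.04-fold higher (log2 1.61, SE 0.30, limma adjusted p = 0.0341). The same 2 probe sets did not overlap between hypoxia and normoxia, as held for 5.37% of all tested. An exact 2-sided permutation test of 6 against 4 arrays gave p = 0.00476 for each, the smallest that the 210 arrangements allow, and 0.0143 after adjustment over the 6 probe sets. The exact p was 0.0524 for Btg2, 0.0857 for Cdkn1a 94881_at, 0.462 for Mdm2 and 0.876 for Ccng1. Without both number 3 arrays, Gadd45a and both Cdkn1a probe sets had an exact permutation p of 0.0286, the smallest that 4 against 4 arrays allow, and 0.0571 after adjustment over the 6, so none passed. These tests carry the same arrays as the group comparisons and are no separate evidence. Their arrangements ignore the sample number, although arrays of a number were read as paired, so the exact p-values may be too small.

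The Gadd45a call held without each array in turn, at log2 1.89 to 2.15 and limma adjusted p of 0.0013 to 0.0195. The Cdkn1a 98067_at value rested on the choice of normoxic arrays. It was a log2 of 0.91 against the adeno-treated arrays alone (limma adjusted p = 0.458) and 2.30 against the untreated arrays alone (0.0297). The call was kept without number 1 of the null-labelled (limma adjusted p = 0.0382), wild-type (0.00895) or untreated group (0.0243). It was lost without number 2 (0.0940) or 3 (0.0575) of the null-labelled group, number 2 (0.0855) or 3 (0.0575) of the wild-type group, either adeno-treated array (0.0986 and 0.159) or untreated number 2 (0.155).

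**Figure D3:**
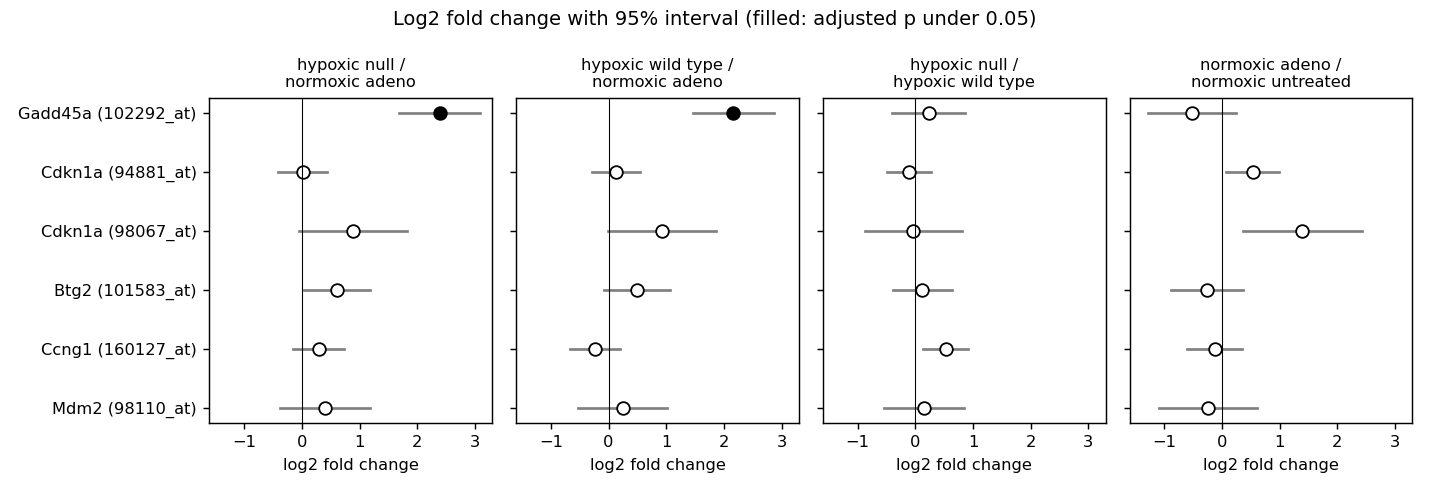
Log2 fold change of each member probe set with its 95% interval from limma, for the 4 comparisons between single groups (1 panel each, all hypoxic against all normoxic arrays not drawn), filled where the adjusted p is under 0.05. Gadd45a over normoxic adeno-treated cells, 2.39 in null-labelled and 2.16 in wild-type cells, gives the only filled points in these panels.

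Btg2, an antiproliferative protein of the Btg/Tob family, lies at chr1:134074865-134079155. It read 765, 1218 and 1070.5 on the null-labelled arrays, and 778, 1191 and 836 on the hypoxic wild-type arrays. It read 758 and 559 on the normoxic adeno-treated arrays and 757 and 813 on the untreated ones. Every hypoxic array was above both adeno-treated arrays, while the number 1 arrays of all 4 groups lay close together. Within number 1, the log2 difference from the adeno-treated array was 0.01 on the null-labelled and 0.04 on the wild-type array, and within number 2 it was 1.12 and 1.09. The difference over normoxic adeno-treated cells was 0.61 in null-labelled cells (limma adjusted p = 0.465) and 0.49 in wild-type cells (limma adjusted p = 0.688).

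Ccng1 encodes cyclin G1, a p53 target that takes part in the regulation of Mdm2, and lies at chr11:40748552-40755309. It read 306, 415 and 350 on the null-labelled arrays and 283, 240.2 and 215 on the hypoxic wild-type arrays. It read 296 and 282 on the normoxic adeno-treated arrays and 292 and 341 on the untreated ones. All 3 null-labelled arrays stood above all 3 hypoxic wild-type arrays, as did 6.78% of all tested probe sets in either direction. Of the normoxic arrays only untreated number 2 lay within the null-labelled range. Both adeno-treated arrays lay under all null-labelled ones, and 25.9% of all tested probe sets had no overlap in that comparison. The lowest normoxic value lay just under the highest wild-type value. Null-labelled over wild-type hypoxic cells gave 1.44-fold (log2 0.53, SE 0.18, interval 0.13 to 0.92), with a limma p of 0.0135 before and 0.999 after adjustment. Before adjustment 3.38% of all tested probe sets were under 0.05 in that comparison, and after it none was (0%). The difference within a number was 0.11 for number 1, 0.78 for number 2 and 0.69 for number 3. An exact test of 3 against 3 arrays cannot go below 0.1.

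Mdm2, the ligase that marks p53 for degradation, is both a target and an inhibitor of p53, and lies at chr10:117688875-117710758. It read 634, 369.5 and 345 on the null-labelled arrays, and 520.4, 390.1 and 288 on the hypoxic wild-type arrays. It read 400 and 266 on the normoxic adeno-treated arrays and 484 and 309 on the untreated ones. The number 1 array was the highest in 4 of 4 groups, and the groups overlapped. The log2 difference over normoxic adeno-treated cells was 0.40 in null-labelled cells (interval -0.37 to 1.17, limma adjusted p = 0.766) and 0.25 in wild-type cells (interval -0.53 to 1.02, adjusted p = 0.917). Adeno-treated over untreated normoxic cells gave -0.24 (interval -1.09 to 0.61).

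With the sample number as a block, which compares arrays of the same number, more probe sets were called. Null-labelled over normoxic adeno-treated cells then had 5.78% of all tested called, and Mdm2 was called beside Gadd45a (log2 0.59, limma adjusted p = 0.0471). In hypoxic over normoxic arrays 13% of all tested were called, and Mdm2 (log2 0.39, limma adjusted p = 0.0425) and Cdkn1a 94881_at (0.46, 0.0103) were called beside Gadd45a and Cdkn1a 98067_at. No normoxic array has number 3, so these hypoxic over normoxic log2 differences equal those without both number 3 arrays. The Mdm2 call over all normoxic arrays was lost whichever single array was left out, at limma adjusted p of 0.0536 to 0.152. The call over adeno-treated cells was lost without each array but hypoxic wild-type number 1, at 0.0657 to 0.250. Btg2, not called with all arrays, was called in hypoxic over normoxic arrays without adeno-treated number 1 (log2 0.65, limma adjusted p = 0.0341). Cdkn1a 98067_at was called in adeno-treated over untreated cells without untreated number 1 (2.22, 0.0320). Cdkn1a 94881_at lost its call without untreated number 2 (limma adjusted p = 0.0512), and 98067_at without adeno-treated number 2 (0.0616) or null-labelled number 2 (0.0502). The block called no further member in wild-type over adeno-treated cells (2.23% of all tested), null-labelled over wild-type cells (0.134%) or adeno-treated over untreated cells (0.255%).

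Across the members, the median log2 difference was 0.51 in null-labelled and 0.37 in hypoxic wild-type cells over normoxic adeno-treated cells, against 0.01 and -0.02 over all tested probe sets. All 6 probe sets were above 0 in the first and 5 of 6 in the second. In null-labelled over wild-type hypoxic cells the median was 0.14 (all tested 0.02), with 4 of 6 above 0 and none called. In adeno-treated over untreated normoxic cells it was -0.18 (all tested -0.01), with 2 of 6 above 0, both of them Cdkn1a. For 4 of 6 members no array of one group overlapped the other in null-labelled and adeno-treated cells (25.9% of all tested), and likewise for 3 of 6 in wild-type and adeno-treated (24.8%), 1 of 6 in null-labelled and wild-type hypoxic (6.78%) and 3 of 6 in adeno-treated and untreated cells (48.9%).

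Of 26 other p53 target genes, 29 probe sets were tested. In hypoxic wild-type over normoxic adeno-treated cells 2 probe sets rose and none fell (0.322% of all tested called in either direction). Both belong to Ndrg1, a stress-responsive gene that is also known as a hypoxia gene. Its probe set 160464_s_at read 2178, 2977 and 2002 on the null-labelled arrays, 3291, 3311 and 2751 on the hypoxic wild-type arrays, 1067 and 1212 on the normoxic adeno-treated arrays and 964 and 1000.5 on the untreated ones. Both hypoxic groups were above both normoxic groups, with the wild type higher on number 1, 2 and 3 alike. That probe set was 2.72-fold higher in hypoxic wild-type cells (limma adjusted p = 0.0140), and 96596_at was 2.40-fold higher (0.0453). In null-labelled cells over the same arrays they were 2.06-fold (limma adjusted p = 0.0599) and 1.66-fold (0.278), not past the threshold. In null-labelled over wild-type hypoxic cells neither probe set was called. There 96596_at gave a log2 difference of -0.53 (limma adjusted p = 0.999, and 0.170 with the number as a block).

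Bid, which promotes cell death at the mitochondrion, was the 1 other p53 target past the threshold in null-labelled over normoxic adeno-treated cells, 2.22-fold higher (log2 1.15, limma adjusted p = 0.0393). It read 182, 194 and 180.2 on the null-labelled arrays, 89.1, 90.9 and 90.1 on the hypoxic wild-type arrays, 76.5 and 85.7 on the normoxic adeno-treated arrays and 97.6 and 72.5 on the untreated ones. The null-labelled arrays stood apart from all others. Null-labelled over wild-type hypoxic cells was 2.01-fold, with a limma adjusted p of 0.327. Sfn, the cell cycle inhibitor 14-3-3 sigma, read 245, 196 and 138 on the null-labelled arrays against 101, 9.1 and 49.3 on the hypoxic wild-type arrays. Its log2 difference was 2.17 (limma adjusted p = 0.790), with the value of 9.1 near the offset added.

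The median log2 difference of the 29 other p53 target probe sets was 0.27 in null-labelled and 0.03 in wild-type hypoxic cells over normoxic adeno-treated cells, with 21 and 17 above 0, against 50.9% and 47.2% of all tested probe sets. In null-labelled over wild-type hypoxic cells it was 0.17, with 21 of 29 above 0 and none called, against 55.0% above 0 over all tested and 32 of 45 in the DNA damage and repair list. In adeno-treated over untreated normoxic cells it was 0.07, and none was called. With the number as a block, 5 were called higher in null-labelled (5.78% of all tested in either direction) and 3 in wild-type hypoxic cells over adeno-treated cells (2.23%). Klf4, a transcription factor, was among them in both (log2 2.0 and adjusted p = 0.00137 from limma in null-labelled, 1.83 and 0.00245 in wild-type cells), with Ier3 (0.98, 0.0289) and both Ndrg1 probe sets and Bid in null-labelled cells. Over all hypoxic against all normoxic arrays the block called 8 higher and 2 lower (13% of all tested in either direction), against 2 higher and none lower without it. Ier3, Sesn1 and Ei24 are named here after their values were seen. The 2 lower were Sesn1 (log2 -0.59, limma adjusted p = 0.0198) and Ei24 (-0.60, 0.0062).

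**Figure D4:**
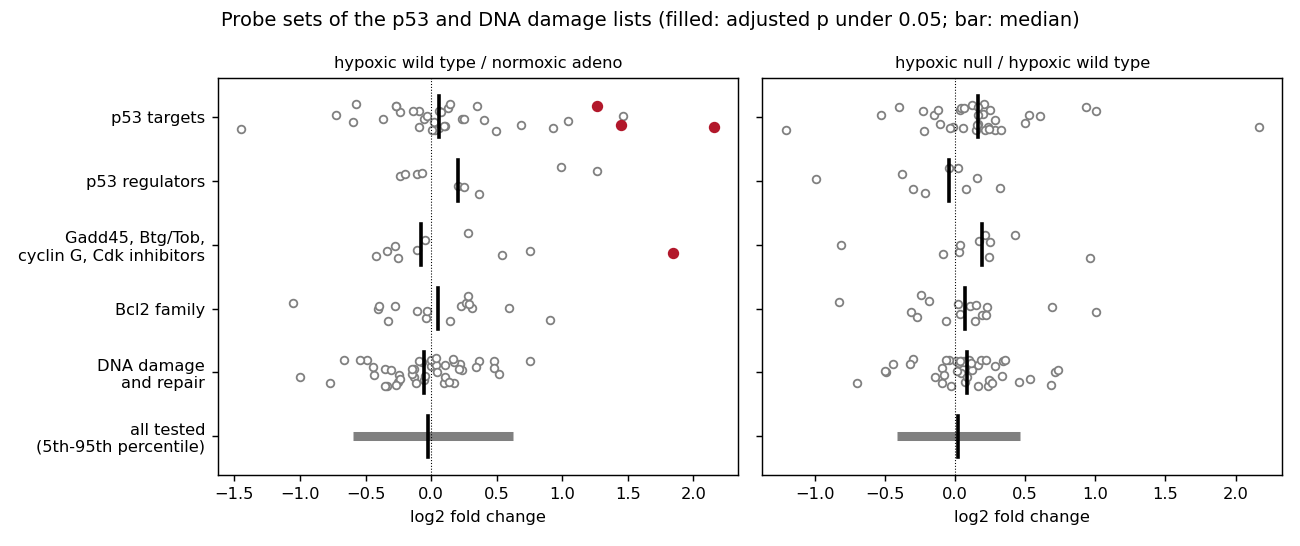
Log2 fold change of every tested probe set of 5 gene lists (1 point each, filled where the adjusted p is under 0.05, bar at the list's median), with the 5th to 95th percentile of all tested probe sets in grey below. In hypoxic wild-type over normoxic adeno-treated cells the filled points are Gadd45a, both Ndrg1 probe sets and Ccng2, and in null-labelled over wild-type hypoxic cells none is filled.

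Among relatives of the members (Gadd45, Btg/Tob and cyclin G families and Cdk inhibitors), 10 probe sets for 9 genes were tested. Only 1 was called, Ccng2, in hypoxic wild-type over normoxic adeno-treated cells (0.322% of all tested) and in hypoxic over normoxic arrays (1.46%). Ccng2, which encodes cyclin G2, read 252, 212 and 311 on the null-labelled arrays and 389, 488 and 486 on the hypoxic wild-type arrays. It read 140 and 107 on the normoxic adeno-treated arrays and 258 and 224 on the untreated ones. It rose 3.6-fold in hypoxic wild-type over normoxic adeno-treated cells (limma adjusted p = 0.00890), and was 2.05-fold higher in null-labelled cells over the same arrays (limma adjusted p = 0.118). Null-labelled over wild-type hypoxic cells gave a log2 difference of -0.81 (limma adjusted p = 0.551), with no overlap, as held for 6.78% of all tested. Adeno-treated over untreated normoxic cells gave -0.95 (limma adjusted p = 0.498). Cyclin G1 and cyclin G2 thus differed in opposite directions between null-labelled and wild-type hypoxic cells, neither of them past the threshold. Btg1, a relative of Btg2, was 1.46-fold higher in hypoxic wild-type cells over adeno-treated ones (limma adjusted p = 0.354). With the number as a block, Ccng2 was also called in null-labelled over adeno-treated cells (log2 0.94, limma adjusted p = 0.0232), beside 1 Gadd45b probe set (1.20, 0.0206). Over all hypoxic against all normoxic arrays Ccng2 was called higher without the block (log2 0.97, limma adjusted p = 0.0155) and with it (0.87, 0.00452). There the block also called both Gadd45b probe sets (0.92, 0.00934 and 0.54, 0.0445) higher and Tob1 lower (-0.41, 0.0409). Gadd45b and Tob1 are named after their values were seen.

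Of 8 other probe sets of p53 regulators, such as kinases that act on p53 and Mdm4, none was called in any of the 5 comparisons. Their median log2 difference was 0.03 in null-labelled and 0.07 in wild-type hypoxic cells over normoxic adeno-treated cells. Chek1, a checkpoint kinase, had the smallest p of them, in adeno-treated over untreated normoxic cells (log2 0.98, limma adjusted p = 0.498). In the Bcl2 family, whose members promote or prevent cell death, 16 probe sets for 13 genes were tested. Only 1 was called, Bid in null-labelled over adeno-treated cells as above (0.429% of all tested called). With the number as a block, Bcl2l1, which protects cells from death and is named after its values were seen, was also called. It was higher in null-labelled (log2 0.64, limma adjusted p = 0.0426) and wild-type cells (0.83, 0.0263) over adeno-treated cells, and in hypoxic over normoxic arrays (0.56, 0.0132), where Bid was called too (0.63, 0.0232). Mcl1, which protects cells from death, had a log2 difference of -0.59 in null-labelled over adeno-treated cells (limma adjusted p = 0.437). Bnip3, known as a HIF-1 target, had a log2 difference of -0.83 in null-labelled over wild-type hypoxic cells (limma adjusted p = 0.999).

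Of 45 probe sets for 40 genes of DNA damage signalling and repair, none was called in any of the 5 comparisons. With the number as a block 1 was called, Ercc5, a nuclease of nucleotide excision repair, higher in hypoxic over normoxic arrays (log2 0.64, limma adjusted p = 0.0318) and named after its value was seen. The median log2 difference was 0.02 in null-labelled and -0.06 in wild-type hypoxic cells over normoxic adeno-treated cells, against 0.01 and -0.02 over all tested probe sets. At an unadjusted limma p under 0.05, 0 were higher and 1 lower in null-labelled over adeno-treated cells (9.74% of all tested in either direction), and 0 higher and 2 lower in wild-type over adeno-treated cells (7.93%). The 2 were Fen1, a flap nuclease (log2 -0.77, adjusted 0.516), and Rad9a, a checkpoint clamp subunit (-1.0, adjusted 0.545). In null-labelled over wild-type hypoxic cells 2 were higher and 0 lower, which is 2 of 45 against 3.38% of all tested in either direction. In adeno-treated over untreated normoxic cells 6 were higher and 0 lower, which is 6 of 45 against 8.32% of all tested in either direction. Among these were Ercc2, a helicase of nucleotide excision repair (log2 0.85, limma adjusted p = 0.498), and Xrcc1, a scaffold of single-strand break repair (0.80, 0.498).

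The label of the cells was set against cell type markers. Albumin read 8039 to 13761 over the 10 arrays, and 12 of 14 hepatocyte markers summed to 28760.5 to 37498 in null-labelled, 26473 to 42410 in hypoxic wild-type, 36048 to 44591 in normoxic adeno-treated and 31216 to 35304 in untreated cells. Ptprc, a defining marker of blood cells, read 0.7 to 5.5, and Acta2 of stellate cells 1399 to 3535. Col1a1 of fibroblasts read 498 to 1334.5 and 852 to 3873 on its 2 probe sets. Krt19 of biliary cells read 2.4 to 239 and 131 to 2291. Pecam1 of endothelial cells read 21.7 to 74.4, and Adgre1 of macrophages 3.9 to 18.4 and 6.9 to 20.2. The part of these markers in the results above was not tested. The 2 Hif1a probe sets were not lower on the null-labelled arrays: 98628_f_at averaged 1169 ± 422 there, against 792 ± 147 in hypoxic wild-type cells (SD, n = 3 each). The sources used here do not give the part of the gene that was removed or the place of the probes, so these values may check nothing about the label.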

How the data were processed

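RNA of mouse hepatocytes was hybridised to 10 arrays, 1 per sample. The deposited values are intensities on a linear scale, already scaled by the authors: the trimmed mean computed here was 200.0 to 200.4 and the median 60 to 70.9 on each array. The sources used here do not give the steps from scan to intensity. For arrays, their number limits the precision.

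To each value 4.7 was added (the 10th percentile of all values) and log2 taken. Control probe sets (66) and those whose mean log2 lay under the 40th percentile were removed, leaving 7453. The platform table pairs 10855 probe sets with 1 symbol, and 10839 of these matched the RefSeq annotation of GRCm38.p6. A further 396 have several symbols and 1237 have none.

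The model, fitted in limma 3.58.1 (R 4.3.3), had 4 group means over all 10 arrays and 6 residual degrees of freedom, with eBayes moderation along an intensity trend. All adjusted p-values are from limma, 2-sided, by Benjamini-Hochberg over 7453, with a threshold of 0.05. Pooled hypoxic and normoxic arrays were also compared with an exact permutation test. Tested on simulated data for hypoxic wild-type against normoxic adeno-treated cells (7453 probe sets, 200 changed), the fit recovered 47% of changes of log2 1 and 93% of log2 2, with 10 false among 150 calls. The simulated spread was independent between arrays, with no effect of the sample number, so these rates may not hold for the real arrays. Tables and figures used Python 3.11.15 with pandas 2.3.3 and matplotlib 3.10.9.

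The members and gene lists were chosen with earlier results of these data known. Named are all member probe sets and, per list and comparison, the genes called or up to 4 of smallest p, and per member the 3 probe sets most alike over the arrays. Promoter windows were read from RefSeq for the 7 genes.

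Whether sample numbers pair arrays was checked on deviations from group means. The labels give the numbers and no meaning for them. All 13 same-number pairs correlated above 0.1 (0.106 to 0.678), so samples of a number were read as paired. In a group of 2 arrays the deviations mirror each other, so these pairs are not 13 separate checks. Hypoxic pairs of different number correlated at -0.518 to -0.146. Between normoxic and hypoxic arrays the pairing was less clear. Untreated number 2 correlated at 0.251 with null-labelled number 3 and 0.161 with number 2, and adeno-treated number 2 at 0.186 and 0.131. A fit with the number as a block (4 residual degrees of freedom) is given where it changes a member's call. For the lists it is given by its counts and named examples. Alternatives changed the offset, filter, scaling, intensity trend, block, normoxic arrays compared with, and arrays used.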

Additional observations from a re-analysis of the deposited data

Results flagged for a closer look

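Ccng1 differed in direction between the hypoxic groups. Relative to the normoxic adeno-treated mean, the 3 null-labelled arrays lay at log2 0.08, 0.52 and 0.27 and the 3 wild-type arrays at -0.03, -0.26 and -0.42. The difference of null-labelled minus wild-type hypoxic cells was 0.53 (limma adjusted p = 0.999, and adjusted p = 0.281 with the sample number as a block), so the test of the difference itself did not pass the threshold.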

How the results depend on the processing

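Of 594 refits over 30 results for member probe sets, 552 kept the direction and the side of the threshold, 17 lost a call, 3 gained one and 22 reversed a direction. The causes were not tested. With the replicate block, 431 probe sets were called in null-labelled and 166 in wild-type hypoxic over normoxic adeno-treated cells, 10 in null-labelled over wild-type, 19 in adeno-treated over untreated and 972 in hypoxic over normoxic arrays, against 32, 24, 0, 0 and 109 without it. Members called were then 2 in null-labelled over adeno-treated cells and 4 in hypoxic over normoxic arrays, and no other member call changed. Without both number 3 arrays, 17 were called in null-labelled over adeno-treated cells, 1 in null-labelled over wild-type, 1 in adeno-treated over untreated and 185 in hypoxic over normoxic arrays, with 1 member. Against all 4 normoxic arrays, 69 were called in null-labelled and 38 in wild-type cells. The 6 hypoxic arrays alone with the block gave 2. Adeno-treated arrays alone as the normoxic side, an alternative chosen after seeing the data, gave 34 and 1 member in hypoxic over normoxic arrays.

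Leaving out 1 array gave 3 to 28 calls and 0 to 1 members in null-labelled over adeno-treated cells, 3 to 30 and 0 to 1 in wild-type over adeno-treated cells, and 33 to 136 and 1 to 2 in hypoxic over normoxic arrays. It turned differences that were not called: over adeno-treated cells, Cdkn1a 94881_at in null-labelled (-0.0668 to 0.17) and Mdm2 in wild-type cells (-0.0418 to 0.54); in null-labelled over wild-type cells, Gadd45a (-0.00961 to 0.49), Cdkn1a 94881_at (-0.20 to 0.0462) and 98067_at (-0.43 to 0.19), Btg2 (-0.0208 to 0.31) and Mdm2 (-0.12 to 0.36); in adeno-treated over untreated cells, Mdm2 (-0.56 to 0.0771); and in hypoxic over normoxic arrays, Ccng1 (-0.0910 to 0.0204).

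Cdkn1a 98067_at in null-labelled over wild-type cells turned to 0.000496 under quantile normalization and 0.0754 without number 3. Cdkn1a 94881_at in null-labelled over adeno-treated cells turned to -0.0712 with equal medians. Ccng1 in hypoxic over normoxic arrays turned to 0.0156 with the block or without number 3, also in the exact test, and to 0.0281 against adeno-treated arrays alone. Without number 3, Cdkn1a 94881_at had an exact permutation p of 0.0286 for hypoxic against normoxic arrays (difference 0.46), under the threshold before and not after adjustment over the 6 probe sets (0.0571), as for Gadd45a and 98067_at.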

Other observations

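The probe sets most alike to each member over the 10 arrays were found by Pearson's r of log2 values, which is high wherever the same hypoxic and normoxic arrays stand apart. For Gadd45a these were Grpel2 (r = 0.989), Atf3 (0.987) and Myc (0.986). For Cdkn1a 98067_at they were Nelfa (0.967), Usp3 (0.952) and Hyal2 (0.941). For Btg2 they were Crp (0.960), Arhgef2 (0.959) and B3galt4 (0.940). For Ccng1 they were Glud1 (0.928), Cytip (0.915) and Mpdu1 (0.909), and for Mdm2 Nusap1 (0.954), Plat (0.951) and Basp1 (0.941). These were picked as the highest of all tested probe sets, and no test was made.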
